A study of Arabidopsis thaliana with 12 samples.

Results

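mapkkk5 seedlings were compared with Col seedlings after 3 h of chitin, with 3 libraries per genotype. The comparison was defined by the labels: the 3 chitin libraries of each genotype, which share replicate numbers 1 to 3, and every gene that passed an expression filter. It covers 6 of the 12 libraries of the series and 20994 of the 32678 genes in the count table. Col is the wild type Col-0, and mapkkk5 is the mapkkk5-1 line of Arabidopsis thaliana, whose kind of mutation the labels do not state. The 4 groups of the series are Col and mapkkk5 with mock treatment and Col and mapkkk5 with chitin. All seedlings were 8 days old and were grown in MGRL medium with 0.2% agarose and 1% sucrose, under 16 h of light at 22 °C and 8 h of darkness at 20 °C. Before treatment, all of them spent 3 h in liquid medium. The chitin dose is 40 mM in the design text and 40 µM in the treatment protocol, and the difference could not be resolved. The design text speaks of 3 independent experiments, 1 for each replicate number, and RNA came from whole seedlings. A lower transcript level can therefore not be told apart from fewer cells of the type that makes it, and p-values measure the spread of these 3 experiments only.

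Chitin is a polymer of fungal cell walls. Arabidopsis senses it at the cell surface through the LysM receptor kinases LYK5 and CERK1, which act through the cytoplasmic kinase PBL27. MAPKKK5 encodes a MAP kinase kinase kinase that PBL27 is known to phosphorylate, and which relays the signal to MKK4 and MKK5 and on to MPK3 and MPK6. Activation of this cascade is followed by synthesis of ethylene, camalexin and salicylic acid and by transcription of defence genes. The comparison asks which transcripts differ between the genotypes while the chitin response is under way.

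Libraries held 15455836 to 20179428 counted reads. Levels are given as CPM (counts divided by the TMM-scaled library size in units of 1000000 reads), for experiments 1, 2 and 3 in that order, and 3 reads correspond to 0.149 to 0.194 CPM. Differences are log2 values, mapkkk5 minus Col, ± SE. A gene is called where its adjusted p is below 0.05 in edgeR's quasi-likelihood test over all genes tested. The libraries of 1 experiment deviated together from their group means, so the same test was also run with the experiments as a block, and its value is given where it changes a call.

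MAPKKK5 (AT5G66850) was read in every library. After chitin it stood at 39.9, 37.5 and 45.3 CPM in Col and at 26.7, 32.9 and 13.6 CPM in the libraries labelled mapkkk5. All 3 mapkkk5 libraries lay below all 3 Col libraries, but the difference of -0.75 ± 0.23 was not called (adjusted p = 0.674, and 0.119 with the block). In mock libraries the transcript was at 28.1, 25.7 and 21.7 CPM in Col and at 3.90, 5.29 and 3.81 CPM in mapkkk5, a called difference of -2.53 ± 0.27 (adjusted p = 0.00147). The change of this difference between treatments was 1.787 ± 0.355 (1.738 ± 0.310 with the block). It was not called in edgeR's quasi-likelihood test over all genes tested (adjusted p = 0.866, and 0.162 with the block). That adjustment is strict for a single gene of interest, so the missing call does not show that the difference stayed the same. All 3 mapkkk5 chitin libraries lay above all 3 mapkkk5 mock libraries. The same held for Col, with a smaller rise relative to its mock level. Counts per gene do not show which stretch of the transcript was read. Of the 10 measured genes that lie closest to MAPKKK5 on chromosome 5 (5 upstream and 5 downstream), 0 were called after chitin, and their differences ran from -1.48 to 0.82 with a median of 0.00.

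Some libraries stood apart within their group. The summed level of the seed storage markers, which include the cruciferins and oleosins stored in seeds, was 1.38, 1.00 and 0.811 CPM in Col after chitin. In mapkkk5 after chitin it was 0.638, 25.3 and 96.6 CPM, so experiments 2 and 3 were above experiment 1 and above all 3 Col libraries after chitin. The mock libraries also varied, with 26.0 CPM in experiment 1 of Col and 36.6 and 90.5 CPM in experiments 1 and 3 of mapkkk5. All 9 measured markers of this list had positive differences after chitin, with a median of 7.80, and 0 of them were called in either edgeR fit. COR15A, a cold-induced gene, reached 107 CPM in experiment 1 of mapkkk5 after chitin, against 5.75 and 1.78 CPM in the other mapkkk5 libraries and 0.733 to 1.69 CPM in Col. In experiment 3 the Col libraries differed from the other Col libraries in MRD1, a gene known to vary between Col stocks. It was at 59.5 and 57.2 CPM in experiments 1 and 2 and at 3.30 CPM in experiment 3 of Col after chitin, while mapkkk5 ranged from 57.4 to 76.1 CPM. AT4G16940, a TIR-NBS-LRR disease resistance gene, also split the Col libraries, with 30.0 and 24.6 CPM in experiments 1 and 2 and 1.47 CPM in experiment 3. The part of these library differences in the results was not tested beyond the recalculations given with each count.

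**Figure D1:**
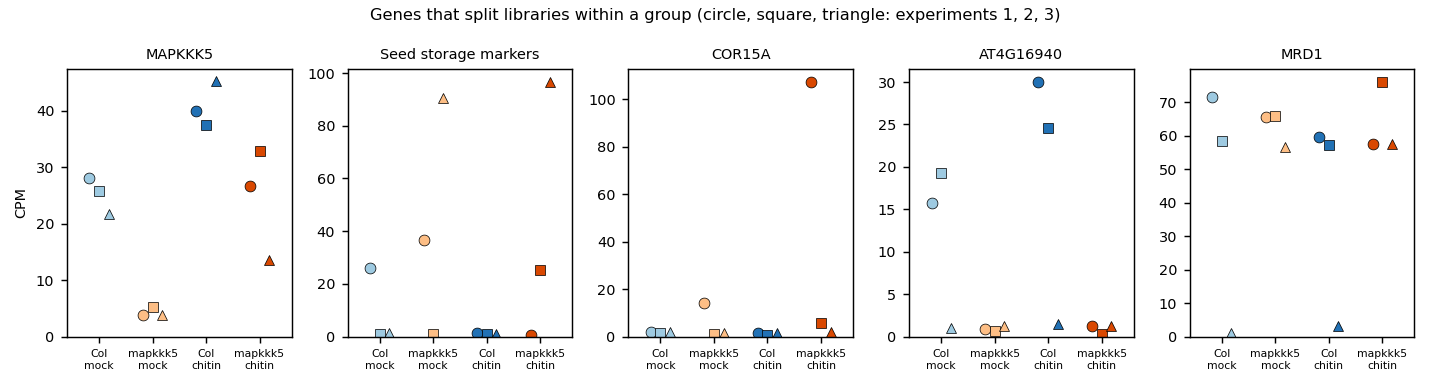
CPM (linear axes) of MAPKKK5, the summed seed storage markers, COR15A, AT4G16940 and MRD1 in each of the 12 libraries, by group, with 1 symbol per experiment. Seed storage transcripts reach 96.6 CPM in mapkkk5 after chitin, and MRD1 is at 3.30 CPM in the Col chitin library of experiment 3; all but MAPKKK5 are shown because they split a group.

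After chitin 15 genes were called between the genotypes, 0.0714% of those tested. Of these, 13 were lower in mapkkk5 (0.0619% of all genes) and 2 were higher (0.00953%). In all 15 the groups did not overlap, and 12 differed by 2-fold or more. The 13 lower genes were PBS3, ICS1 and PR1 of the salicylic acid pathway, the ethylene synthesis gene ACS2, the receptor-like kinase genes CRK36, WAKL10 and WAK3, the SPFH-domain gene AT5G25260, and PUB54, AT1G44130, AOX1D, AT4G01870 and AT5G52760. The 2 higher genes were QQS and MAF5. With the experiments as a block 96 genes were called (0.457%), 85 lower (0.405%) and 11 higher (0.0524%), and all 15 were among them. All 96 had the same sign in the 3 experiments, which the blocked test favours, so this adds no separate evidence. In 86 of the 96 the groups did not overlap, as was the case for 9.30% of all genes tested. Selection by the test favours this too. The median difference of the 85 lower genes was -0.89 and they ranged from -4.00 to -0.34 in the blocked fit, 34 of them lower by 2-fold or more. Over all genes tested the median was -0.01, with 11005 genes below and 9989 above 0.

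The counts depended on single experiments and libraries. Without all 4 libraries of experiment 1, 2 or 3, the unblocked test called 0, 4 or 23 genes, and the blocked test called 60, 20 or 162. At an unadjusted p below 0.05 there were 1276 of 20994 genes in all (3002 with the block), and 1097 without experiment 1. A share of 0.05 of the genes tested is expected to pass where no gene differs. Of single libraries, only leaving out Col chitin of experiment 2 moved the count by over 1.5 times, to 9 genes. Without both mapkkk5 chitin libraries that held seed storage transcripts, which leaves 1 library in that group and assumes that it varies like the libraries of the other groups, 8 genes were called, and 3 of the 15 (PBS3, QQS and MAF5) were among them. The other 12 had a negative difference and no call, for example PR1 at -3.39 (adjusted p = 0.132), AT5G25260 at -1.61 (0.0909), ACS2 at -1.88 (0.0818) and ICS1 at -1.41 (0.132). With the seed storage level as a covariate 13 genes were called. The sums of the other marker lists overlapped between the genotypes: 1943 to 3482 CPM in Col and 1694 to 2567 CPM in mapkkk5 for 13 root markers, 37.2 to 49.3 and 42.3 to 51.8 CPM for 8 stomatal lineage markers, 234.9 to 292.4 and 202.4 to 256.6 CPM for 3 phloem markers, and 118.3 to 133.0 and 111.4 to 139.9 CPM for 6 markers of dividing cells. Of the 13 root markers 12 had negative differences, with a median of -0.15 that kept its sign under all 23 alternatives, beside medians of -0.13 to -0.44 in the immune lists; the part of this in the results was not tested. Of these markers only PHO1, a root phosphate exporter, was called, with the block (-0.42, adjusted p = 0.0483). No marker of any of the 5 lists that passed the filter was at 0 in all 6 libraries.

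**Figure D2:**
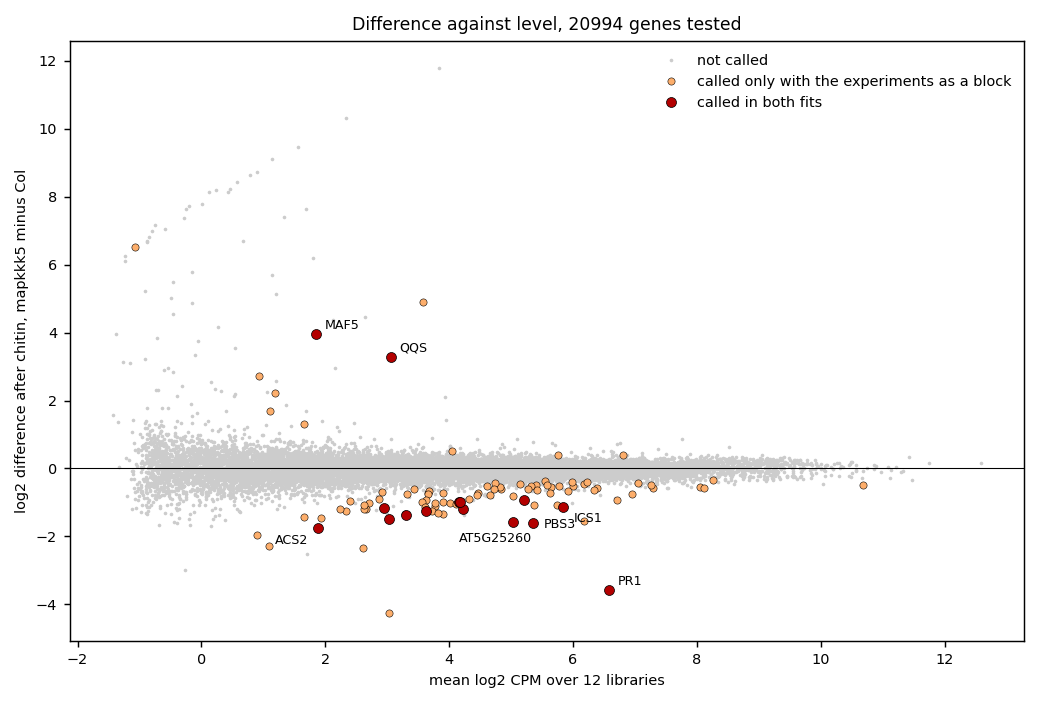
Log2 difference after chitin (mapkkk5 minus Col) against mean log2 CPM over 12 libraries for 20994 genes; red points are the 15 genes called in both fits and orange points those called only with the experiments as a block. Of the 96 called genes, 85 lie below 0, and PR1 at -3.58 and MAF5 at 3.94 are the outermost red points.

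Of the genes of salicylic acid synthesis, PBS3 and ICS1 were lower in mapkkk5 after chitin in both fits. PBS3 (AT5G13320, TAIR10.1 chromosome 5, 4267456 to 4271064) encodes the enzyme that joins isochorismate to glutamate on the way to salicylic acid. It was at 91.0, 147 and 98.8 CPM in Col and at 31.0, 42.6 and 37.0 CPM in mapkkk5. Every mapkkk5 library was below the lowest Col library. The difference was -1.61 ± 0.16 (adjusted p = 0.000969). In mock libraries of both genotypes PBS3 stayed between 6.78 and 7.12 CPM, with a difference of 0.02 ± 0.19 (adjusted p = 1).

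ICS1 (AT1G74710, named EDS16 in the annotation) encodes isochorismate synthase, which makes the precursor that PBS3 acts on. Its level after chitin was 123, 160 and 103 CPM in Col and 48.5, 67.9 and 59.0 CPM in mapkkk5. The groups did not overlap, and the difference was -1.14 ± 0.17 (adjusted p = 0.0228). EDS5, which encodes the transporter that exports isochorismate from plastids, was at 86.4, 100.3 and 88.5 CPM in Col and at 47.6, 56.1 and 61.9 CPM in mapkkk5. EDS5 was called with the block (-0.74, adjusted p = 0.00484) and not without it (adjusted p = 0.121). FMO1, which makes the immune signal N-hydroxypipecolic acid, was also called only with the block (-1.08, adjusted p = 0.00713). It stood at 125.9, 101.0 and 76.2 CPM in Col and at 49.1, 37.5 and 57.0 CPM in mapkkk5, again without overlap. In mock FMO1 differed by -0.83 ± 0.25 and EDS5 by -0.04 ± 0.15, not called. EDS5 and FMO1, like the other genes named here outside the stated naming rule, were chosen after their values were seen.

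All 15 tested genes of salicylic acid synthesis and its regulators had negative differences, with a median of -0.44, and 8 of them did not overlap between the groups. Of all genes tested, 5.62% were lower without overlap. The number of calls was 2 without and 4 with the block (0.0714% and 0.457% of all genes tested). The regulators were not called: CBP60G and SARD1, the calmodulin-binding-type transcription factors of ICS1, differed by -0.53 ± 0.15 and -0.29 ± 0.10 (adjusted p with the block 0.125 and 0.154). EDS1 and PAD4, lipase-like partners that act upstream of salicylic acid, differed by -0.34 ± 0.11 and -0.44 ± 0.14 (0.132 and 0.149).

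**Figure D3:**
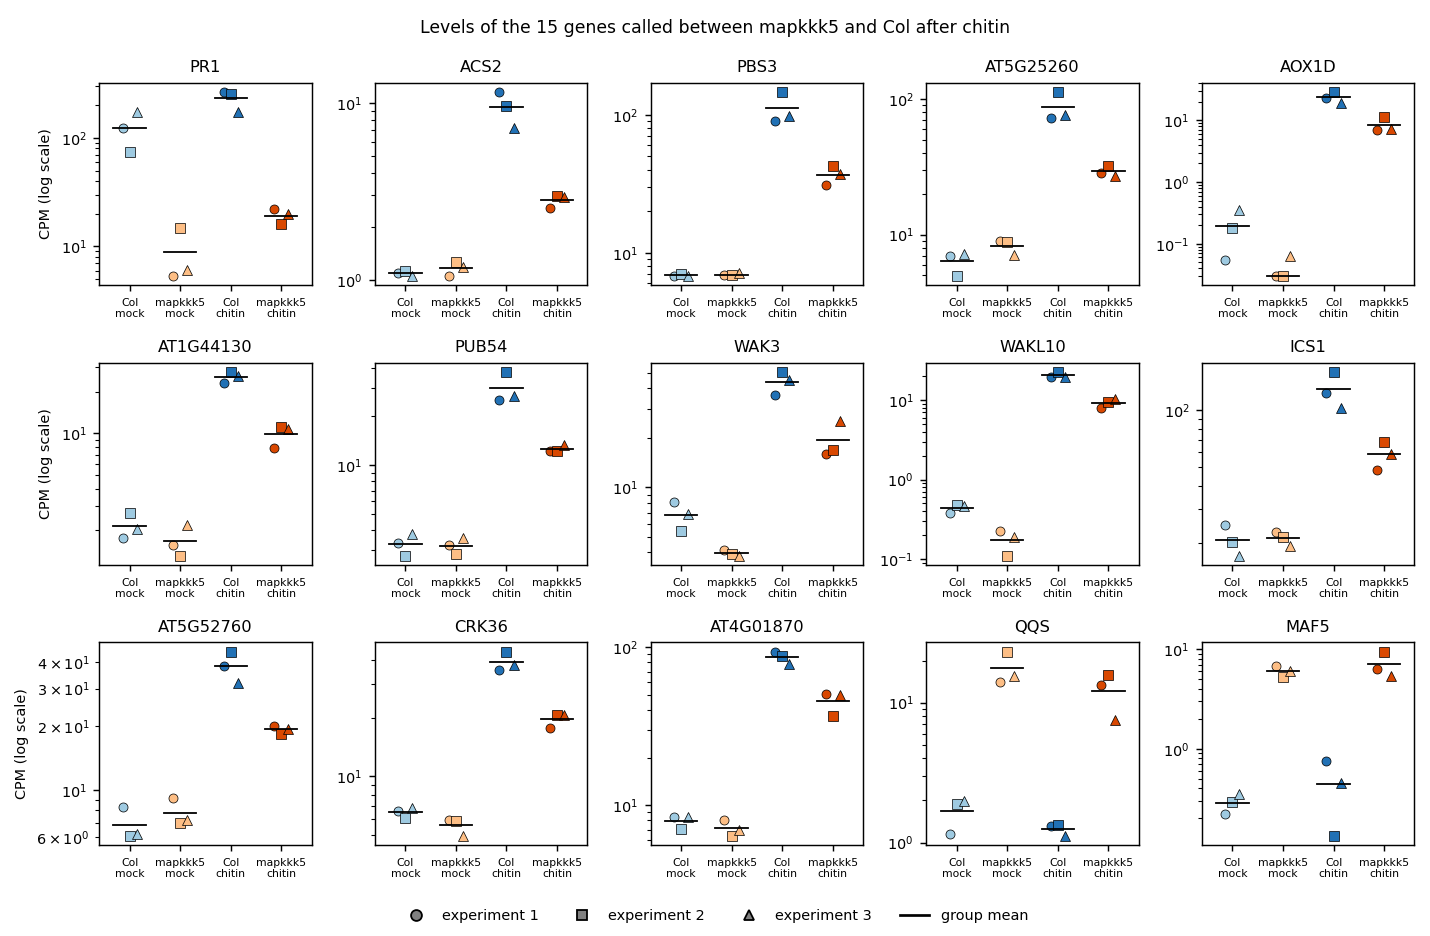
CPM on log axes of the 15 genes called between mapkkk5 and Col after chitin, in all 4 groups, with 1 symbol per experiment and a line at each group mean; AOX1D at 0 reads is drawn at 0.03 CPM. In every panel the 3 mapkkk5 chitin libraries lie on 1 side of the 3 Col chitin libraries, and PR1, QQS and MAF5 are also called in mock.

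PR1 (AT2G14610), a secreted antimicrobial protein widely used as a reporter of salicylic acid, had the most negative difference among the 13 lower genes. It was at 265, 254 and 172 CPM in Col after chitin and at 21.9, 16.0 and 19.9 CPM in mapkkk5. The groups were far apart, with a difference of -3.58 ± 0.37 (adjusted p = 0.00100). The gap was there in mock as well, with 124, 73.8 and 172 CPM in Col and 5.34, 14.9 and 6.12 CPM in mapkkk5 (-3.80 ± 0.38, adjusted p = 0.00101). The difference of these differences, 0.22, was not called (adjusted p = 1). XTH10, a xyloglucan endotransglucosylase gene that lies next to PR1 on chromosome 2, was also lower after chitin, at 6.39, 6.07 and 4.11 CPM in Col and 2.45, 1.41 and 2.24 CPM in mapkkk5. XTH10 was called only with the block (-1.43, adjusted p = 0.0158). Of 18 genes for salicylic acid receptors, helper immune receptors and output proteins, PR1 was the only one called in either fit. Over all genes tested the shares called were 0.0714% without and 0.457% with the block. All 18 differences were negative with a median of -0.15. PR2, a glucanase, was at 79.8, 113.9 and 73.7 CPM in Col and 91.7, 41.1 and 77.3 CPM in mapkkk5, and these ranges overlapped (-0.35 ± 0.27, adjusted p = 0.847). PR5, a thaumatin-like protein, also overlapped (-0.22 ± 0.19, adjusted p = 0.859). In mock PR2 and PR5 differed by -0.83 ± 0.28 and -0.52 ± 0.20, not called. For both genes every mapkkk5 mock library was below every Col mock library.

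The SPFH-domain proteins include the flotillins, which sit in membrane microdomains. AT5G25260, annotated as an SPFH/Band 7/PHB domain membrane protein, was at 72.2, 113 and 76.4 CPM in Col and at 28.6, 32.4 and 27.1 CPM in mapkkk5. The groups did not overlap, and the difference was -1.57 ± 0.17 (adjusted p = 0.00165). In mock it was at 4.95 to 7.25 CPM in Col and 7.12 to 8.96 CPM in mapkkk5 (0.37 ± 0.20, adjusted p = 1). AT5G64870, which has the same annotation, was at 5.20, 10.8 and 10.8 CPM in Col and 2.07, 3.55 and 4.13 CPM in mapkkk5. It was called with the block only (-1.44, adjusted p = 0.0171). FLOT1, the neighbour of AT5G25260, was at 202.8, 235.0 and 205.8 CPM in Col and 159.0, 158.3 and 199.6 CPM in mapkkk5, and was not called (-0.32 ± 0.13, adjusted p = 0.798, and 0.225 with the block). These 3 sequences are related, so reads that match more than 1 of them could have been dropped or divided. The 6 danger peptide and receptor genes in the same list (PROPEP1 to PROPEP3, PEPR1, PEPR2 and AT4G28460) ranged from -0.32 to 0.08, and 0 were called.

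ACS2 (AT1G01480) encodes an enzyme of ethylene synthesis and is a known target of the MPK3 and MPK6 pathway at both the transcript and the protein level. It was at 11.5, 9.60 and 7.25 CPM in Col and at 2.55, 2.99 and 2.93 CPM in mapkkk5. The groups did not overlap (-1.74 ± 0.20, adjusted p = 0.00190), while mock levels of both genotypes were 1.05 to 1.25 CPM. Of 21 ethylene genes ACS2 was the only one called (0.0714% of all genes tested without and 0.457% with the block). Of the 21 differences, 20 were negative and the median was -0.20. ACS6, the other well-known kinase target of the family, differed by -0.11.

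The 300 bases before the annotated start of PBS3, ICS1, AT5G25260 and ACS2 are shown because these genes stand for the salicylic acid, membrane and ethylene genes among the 13 lower ones, and the motifs searched are bound by factors of these pathways. They were read from the TAIR10.1 genome (RefSeq), 5′ to 3′ in the direction of the gene. Capitals mark TTGAC, the core of the W-box bound by WRKY factors, and GAAATTT, a motif bound by CBP60G, on either strand. The windows are chr5:4267156-4267455 (plus strand), chr1:28069995-28070294 (plus), chr5:8752384-8752683 (plus) and chr1:175406-175705 (plus), in that order, and none of them overlaps an annotated exon.
PBS3 promoter: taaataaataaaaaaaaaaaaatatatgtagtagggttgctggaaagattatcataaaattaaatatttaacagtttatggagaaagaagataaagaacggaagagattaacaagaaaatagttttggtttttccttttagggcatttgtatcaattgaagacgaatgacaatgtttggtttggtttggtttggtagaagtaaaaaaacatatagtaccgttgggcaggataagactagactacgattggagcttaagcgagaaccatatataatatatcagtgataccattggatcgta
ICS1 promoter: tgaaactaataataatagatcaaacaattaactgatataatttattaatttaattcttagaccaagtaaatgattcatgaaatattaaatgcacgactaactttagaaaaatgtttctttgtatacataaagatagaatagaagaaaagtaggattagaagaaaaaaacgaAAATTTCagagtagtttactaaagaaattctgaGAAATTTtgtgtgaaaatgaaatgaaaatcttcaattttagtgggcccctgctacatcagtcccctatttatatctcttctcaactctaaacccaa
AT5G25260 promoter: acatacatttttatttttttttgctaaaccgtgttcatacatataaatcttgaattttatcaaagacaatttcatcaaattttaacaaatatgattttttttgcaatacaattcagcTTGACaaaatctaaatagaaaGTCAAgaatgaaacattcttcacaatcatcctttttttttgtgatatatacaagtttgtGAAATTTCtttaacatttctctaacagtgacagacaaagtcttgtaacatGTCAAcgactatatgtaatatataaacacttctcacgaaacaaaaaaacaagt
ACS2 promoter: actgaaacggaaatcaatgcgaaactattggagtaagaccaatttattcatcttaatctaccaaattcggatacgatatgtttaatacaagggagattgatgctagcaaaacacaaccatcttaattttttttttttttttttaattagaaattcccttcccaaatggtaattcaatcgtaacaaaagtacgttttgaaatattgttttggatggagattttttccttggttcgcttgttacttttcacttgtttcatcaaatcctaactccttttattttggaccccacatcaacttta
The AT5G25260 window held 3 copies of TTGAC and 2 overlapping matches of GAAATTT, which is matched on both strands by the same stretch. ICS1 had 2 copies of GAAATTT and none of TTGAC, and the PBS3 and ACS2 windows held neither. Of the windows of the 13 lower genes, 10 (76.9%) held TTGAC, as did 58 of the 85 lower in the blocked fit (68.2%) and 50.8% of the windows of all tested genes that could be read. Those without it among the 13 were PBS3, ICS1 and ACS2, so the printed windows are not typical of the 13 in this motif. GAAATTT was in 3 of 13 (23.1%), 22.4% of the 85 and 15.0% of all. TGACG, the core of the element bound by TGA factors, which overlaps TTGAC where the 2 run together as TTGACG, was in 15.4%, 27.1% and 22.1%. CGCGT, bound by CAMTA factors, was in 7.7%, 14.1% and 8.4%. Of the 11 higher genes 3 (27.3%) held TTGAC. These shares are descriptions of letters in 1 window and do not show binding.

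Receptor-like kinases formed the next group. The CRK family has cysteine-rich extracellular domains, and the WAK family binds cell wall pectin. CRK36 was at 35.5, 43.9 and 37.5 CPM in Col and at 17.7, 20.7 and 20.6 CPM in mapkkk5 (-0.99 ± 0.12, adjusted p = 0.00292). WAKL10 was at 19.7, 22.8 and 19.4 CPM in Col and at 7.97, 9.59 and 10.2 CPM in mapkkk5 (-1.15 ± 0.14, adjusted p = 0.00382). WAK3 was at 36.4, 50.5 and 45.1 CPM in Col and at 15.9, 16.9 and 25.2 CPM in mapkkk5 (-1.19 ± 0.18, adjusted p = 0.0228). In all 3 the highest mapkkk5 library was below the lowest Col library. WAK3 was also lower in mock in each experiment, at 8.10, 5.42 and 6.84 CPM in Col and 4.12, 3.93 and 3.81 CPM in mapkkk5. This was not called (-0.78 ± 0.22, adjusted p = 1). WAKL10 was lower in mock as well, at 0.383, 0.472 and 0.468 CPM in Col and 0.223, 0.109 and 0.187 CPM in mapkkk5. These levels are near that of 3 reads, and the difference was not called (-1.32 ± 0.37). For CRK36 the mock difference was -0.22 ± 0.13, not called.

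The neighbours CRK37, CRK38 and CRK39 on chromosome 4 were called with the block, at -1.17, -1.26 and -1.22 (adjusted p = 0.0365, 0.0245 and 0.00359). CRK38, for example, was at 10.5, 12.7 and 9.94 CPM in Col and at 4.30, 4.51 and 4.93 CPM in mapkkk5. CRK7 on the same chromosome was called as well (-1.02, adjusted p = 0.0294). In mock CRK37, CRK38, CRK39 and CRK7 differed by -0.07, -0.16, -1.09 and -0.13, not called. These genes are similar in sequence, so their separate values are uncertain. In the list of 16 CRK and WAK genes, 15 differences were negative with a median of -0.35, 2 were called without and 4 with the block (0.0714% and 0.457% of all genes tested), and 8 were lower without overlap (5.62% of all). WAK1 and WAK2 differed by -0.24 and -0.25 and were not called.

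Among the 96 called genes, 16 had another called gene within 5 genes on the chromosome. The same count was not made for other sets of genes, so it does not show clustering. The run of CRK36 to CRK39, the PR1 and XTH10 pair, MAF4 and MAF5, and AT2G32190 and AT2G32210 were among them. AT2G32190 and AT2G32210, which encode small cysteine-rich transmembrane proteins, were called with the block at -1.28 and -1.02 (adjusted p = 0.00202 and 0.0119).

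The other lower genes called in both fits came from several classes. PUB54, a U-box protein, was at 25.4, 37.7 and 26.7 CPM in Col and at 12.2, 12.2 and 13.4 CPM in mapkkk5 (-1.24 ± 0.16, adjusted p = 0.00535). AT1G44130, an aspartyl protease gene, was at 23.1, 27.9 and 26.1 CPM in Col and at 7.81, 11.1 and 10.8 CPM in mapkkk5 (-1.37 ± 0.18, adjusted p = 0.00629). AOX1D, an alternative oxidase of mitochondria, was at 23.1, 28.9 and 19.1 CPM in Col and at 6.86, 11.2 and 7.23 CPM in mapkkk5 (-1.49 ± 0.24, adjusted p = 0.0423). These 3 genes were at 0.00 to 3.80 CPM in all mock libraries, and in each of them the groups did not overlap after chitin. AT4G01870, a tolB-like protein gene, was at 93.5, 87.5 and 77.8 CPM in Col and at 50.7, 36.6 and 50.0 CPM in mapkkk5 (-0.91 ± 0.13, adjusted p = 0.0162). AT5G52760, of the copper transport protein family, was at 38.2, 44.7 and 31.9 CPM in Col and at 20.1, 18.3 and 19.4 CPM in mapkkk5 (-0.99 ± 0.15, adjusted p = 0.0228). The calls of AOX1D and AT5G52760 were the least stable of the 15, each held under 12 of 23 alternatives, while those of PBS3 and MAF5 were lost under 1 alternative only, without experiment 1.

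**Figure D4:**
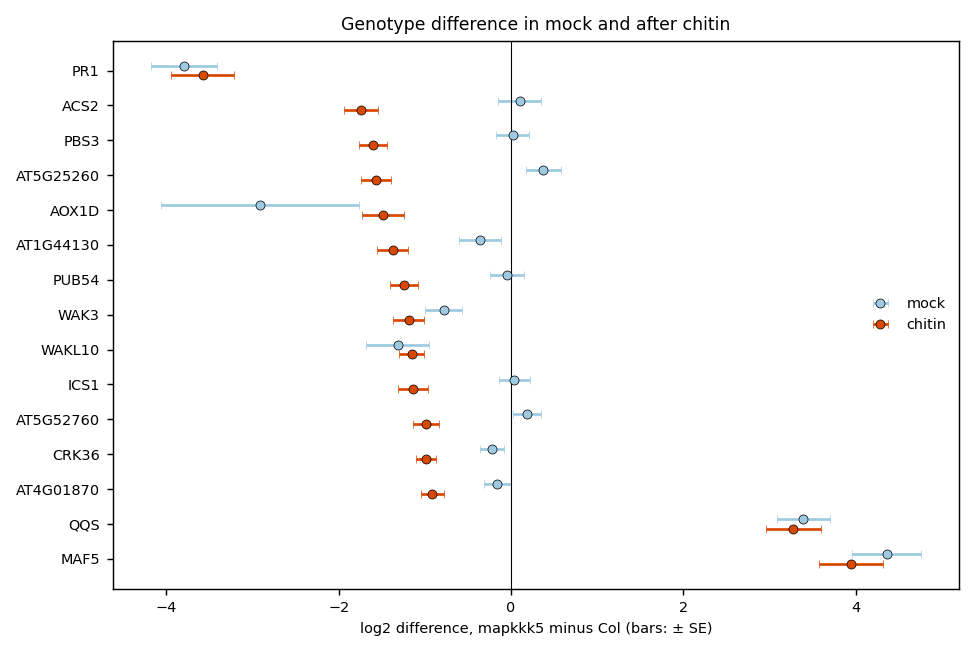
Log2 difference, mapkkk5 minus Col, in mock (blue) and after chitin (orange) for the 15 genes called after chitin; bars are ± SE from the fit to 12 libraries. PBS3, ICS1 and ACS2 lie near 0 in mock, at 0.02, 0.04 and 0.10, while PR1, QQS and MAF5 lie at -3.80, 3.39 and 4.36.

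In mock, whose libraries are shared with no chitin group, 4 genes were called between the genotypes, 0.0191% of those tested, 2 in each direction (0.00953%). With the block 7 were called (0.0333%), 5 of them lower (0.0238%). Without it MAPKKK5 and PR1 were lower, and QQS and MAF5 were higher. PR1, QQS and MAF5 were also the genes called in both treatments without the block, and with it NRT1.8, cwINV6 and AT5G35935, all lower, joined them, which makes 6 genes (4 lower and 2 higher). The difference between the chitin and mock differences was called for 0 genes by edgeR without the block (275 at an unadjusted p below 0.05), for 2 genes (0.00953%) with the block and for 4 genes by DESeq2. PBS3 changed by -1.61 ± 0.18 with the block (adjusted p = 0.0106, and 0.168 without it), and AT5G25260 by -1.92 ± 0.24 (0.0130 and 0.0899). For the other 13 genes the mock and chitin differences were not shown to differ.

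QQS and MAF5 were higher in mapkkk5. QQS, a short gene found only in Arabidopsis that affects starch content and is known to vary between stocks through DNA methylation, was at 1.32, 1.33 and 1.11 CPM in Col and at 13.3, 15.6 and 7.46 CPM in mapkkk5. The difference of 3.28 ± 0.32 (adjusted p = 0.000969) was close to 3.39 ± 0.30 in mock. MAF5, a MADS-box gene of the FLC family of flowering repressors, was at 0.752, 0.133 and 0.456 CPM in Col and at 6.38, 9.48 and 5.34 CPM in mapkkk5 (3.94 ± 0.37, adjusted p = 0.000969). The Col level in experiment 2 was below that of 3 reads. For both genes every mapkkk5 library was above every Col library.

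With the block, FLC (2.26, adjusted p = 0.0473) and MAF4 (1.65, adjusted p = 0.0483) were higher too. FLC was at 0.877, 0.533 and 0.912 CPM in Col and at 3.19, 4.63 and 3.16 CPM in mapkkk5. MAF1, AGL31 and MAF3, which belong to the same family, were not called and differed by 0.26, 0.20 and 0.08. FLC and MAF4 were also higher in mock, by 1.71 ± 0.49 and 1.46 ± 0.36, which was not called. MYB30, a transcription factor of the hypersensitive response, was at 13.6, 11.1 and 12.8 CPM in Col and at 17.5, 16.8 and 19.8 CPM in mapkkk5, called with the block (0.53, adjusted p = 0.0305). BBX14, a B-box zinc finger protein, was called with the block too (0.40, adjusted p = 0.0475). COR15A passed with the block (4.08, adjusted p = 0.0494), with the level of 1 library described above and per-experiment differences of 5.89, 2.79 and 0.35. The remaining higher genes include AT5G28335, with 0 reads in Col after chitin and 0.425 to 0.861 CPM in mapkkk5, and AT2G01422, AT2G29300 and AT1G78020. AT5G28335 was also at 0 in the Col mock libraries, with 0.491 to 1.31 CPM in mapkkk5 mock. In mock AT5G28335 and AT2G01422 differed by 6.77 and 3.29, and AT2G29300 and AT1G78020 by 0.27 and 0.11, not called.

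The tryptophan, camalexin and indole glucosinolate genes make the indolic defence compounds of Arabidopsis. All 22 had negative differences, with a median of -0.31, and 9 were lower without overlap, against 5.62% of all genes tested. In mock the median of this list was -0.21. None was called without the block and 4 with it, against 0.457% of all. ABCG40, a full-size ABC transporter, was at 160, 143 and 125 CPM in Col and at 70.2, 53.1 and 78.8 CPM in mapkkk5 (-1.11, adjusted p with the block = 0.0127). ASA1, the first enzyme of tryptophan synthesis, was at 558, 567 and 596 CPM in Col and at 341, 376 and 445 CPM in mapkkk5 (-0.57, 0.0158). CYP79B2, which turns tryptophan into indole-3-acetaldoxime, was at 550.3, 504.9 and 488.5 CPM in Col and at 357.5, 300.8 and 398.8 CPM in mapkkk5 (-0.56, 0.0370). In each of these 3 the highest mapkkk5 library was below the lowest Col library. CYP71A13, the next camalexin enzyme, was called at -0.67 (0.0461), and PAD3, the last one, was not (-0.59, 0.124). Both were also lower in mock, by -1.39 and -0.79, which was not called. Reads of CYP71A13 and its close copy CYP71A12 may not be separable. Outside this list, DHS1 and ADT4 of the shikimate route and phenylalanine synthesis were called with the block at -0.34 and -0.41 (0.0494 and 0.0255). In the phenylpropanoid list of 11 genes 0 were called and the median was -0.24, while 4CL5, a 4-coumarate:CoA ligase outside that list, was at 43.6, 45.3 and 63.8 CPM in Col and 26.3, 27.9 and 33.4 CPM in mapkkk5 (-0.79, 0.000862).

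Of 26 genes of chitin reception and the MAP kinase cascade, 0 were called without and 1 with the block (0.0714% and 0.457% of all). The differences were negative in 22 of them, with a median of -0.13. Lower without overlap were 3 (5.62% of all), with MAPKKK5 and MPK11 among them. CERK1 was at 75.0, 85.5 and 104.2 CPM in Col and at 73.7, 79.3 and 97.7 CPM in mapkkk5 (-0.08 ± 0.13). LYK5, PBL27, MPK3 and MPK6 differed by -0.24 ± 0.18, -0.04 ± 0.13, -0.14 ± 0.16 and -0.02 ± 0.11, with overlapping groups. The called gene was MPK11, an immune-induced MAP kinase closely related to MPK4. It was at 20.9, 42.0 and 28.8 CPM in Col and at 10.1, 15.4 and 17.5 CPM in mapkkk5, and was called with the block (-1.08, adjusted p = 0.0314).

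Early immune reporters are genes induced within the first hours of pattern perception. Of 23, NHL10 (named YLS9 in the annotation), a membrane-associated defence protein, was the only one called, with the block (0.457% of all genes tested). It was at 29.8, 46.1 and 39.2 CPM in Col and at 15.2, 21.2 and 22.0 CPM in mapkkk5 (-0.98, adjusted p = 0.00244). The median of the list was -0.15, with 17 negative and 6 positive differences. FRK1, a receptor-like kinase gene often used as a reporter, differed by -0.87 and was not called (adjusted p with the block = 0.132). WRKY33, RBOHD and MYB51 differed by -0.15, -0.22 and -0.15 and were not called. ERF6, ERF5 and ERF104, transcription factors downstream of MPK3 and MPK6, had positive differences of 0.37, 0.27 and 0.26, not called.

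Of the genes annotated as disease resistance or TIR-NBS proteins 4 of 139 were lower with the block (2.88%), and of those annotated as kinases 13 of 1174 (1.11%), against 0.405% of all genes tested. AT1G66090 was at 20.6, 47.5 and 40.4 CPM in Col and at 12.1, 14.2 and 16.7 CPM in mapkkk5 (-1.30, adjusted p = 0.0114). AT4G11170 (-0.95, 0.0314) and AT1G17600 (-0.62, 0.0475) were the next ones. The fourth, AT4G16940, lies in the RPP4 and RPP5 cluster of immune receptor genes. It was at 30.0, 24.6 and 1.47 CPM in Col and at 1.28, 0.339 and 1.26 CPM in mapkkk5, so that the Col library of experiment 3 was close to the mapkkk5 level. In mock Col was at 15.7, 19.3 and 1.05 CPM. It was called with the block (-4.00, adjusted p = 0.0305). SNC1 and RPP4 of the same cluster differed by -0.30 and -0.29 and RPP5 by 0.21, not called.

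**Figure D5:**
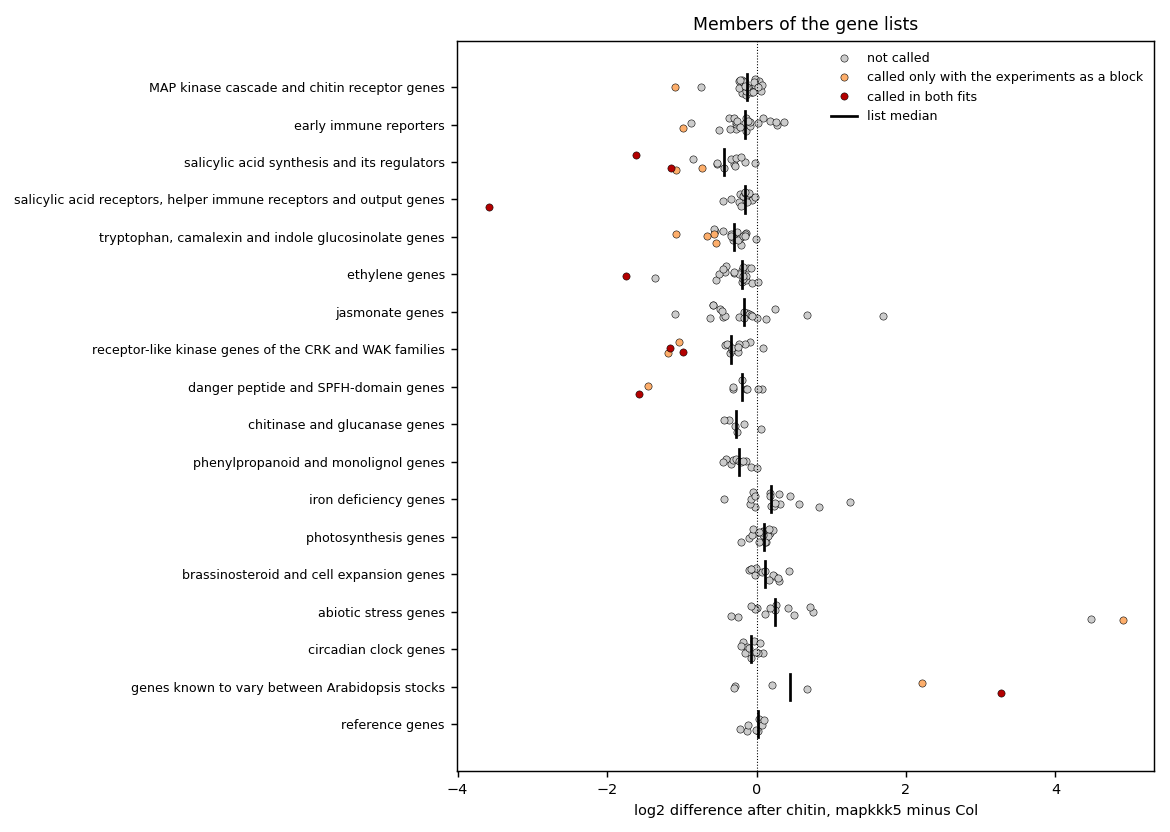
Log2 differences after chitin of the tested members of 18 gene lists; each point is a gene, colours show the calls and the black bar is the list median. The medians run from -0.44 for salicylic acid synthesis to 0.44 for genes known to vary between stocks, and all genes tested have a median of -0.01.

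Other lists held few or no calls in either edgeR fit. Among 20 jasmonate genes 0 were called, with a median of -0.17 (0.09 in mock). Of the differences 15 were negative and 5 positive, and they ran from -1.09 to 1.69. LOX4, a lipoxygenase, was at 13.2, 20.3 and 23.2 CPM in Col and 6.54, 9.87 and 10.3 CPM in mapkkk5 (-1.09 ± 0.30, adjusted p = 0.510, and 0.0911 with the block). Among 6 chitinase and glucanase genes the median was -0.28, among 17 iron deficiency genes 0.19, among 20 photosynthesis genes 0.10, among 13 brassinosteroid and cell expansion genes 0.11 and among 11 circadian clock genes -0.08. None of these was called. In mock the same medians were -0.58, 0.31, -0.09, -0.05 and -0.10, in that order. BES1, a brassinosteroid transcription factor, did not overlap between the groups (56.7, 50.9 and 64.2 CPM in Col and 71.3, 67.9 and 72.6 CPM in mapkkk5), and its difference of 0.30 ± 0.10 was not called (adjusted p = 0.677, and 0.0984 with the block). In the abiotic stress list of 15 genes COR15A alone was called, with the block (0.457% of all genes tested), and the median was 0.25. The 9 reference genes had a median of 0.02 and 0 calls, with 4 negative and 5 positive differences. UBQ10, a polyubiquitin gene, was lower in mapkkk5 without overlap but not called (-0.22 ± 0.10, adjusted p = 0.819, and 0.242 with the block). Its difference in mock was -0.21 ± 0.10, not called. The signs of the iron, photosynthesis, abiotic stress, clock and reference medians changed when libraries or experiments were left out, and the covariate also turned the sign for the clock and reference lists, while those of the immune and phenylpropanoid lists did not.

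Some called genes fell outside the lists. AT2G45220, a pectin methylesterase gene, was at 178.7, 196.3 and 183.1 CPM in Col and at 64.8, 53.6 and 70.9 CPM in mapkkk5 (-1.58, adjusted p with the block = 0.00187). SBT3.5, a subtilase of the cell wall, was at 39.0, 46.9 and 50.1 CPM in Col and at 24.9, 23.9 and 33.5 CPM in mapkkk5 (-0.73, 0.00187). EXT3, an extensin that crosslinks in the wall, was at 1929, 2051 and 2589 CPM in Col and at 1385, 1382 and 1923 CPM in mapkkk5 (-0.49, 0.0362). XLG2, an extra-large G protein of immune receptor complexes, was called at -0.61 (0.00475) and NHL3, a relative of NDR1, at -0.58 (0.0337). The groups of XLG2 and NHL3 did not overlap, and in EXT3 the highest mapkkk5 library, at 1923 CPM, lay just under the lowest Col library at 1929 CPM. In mock EXT3 and SBT3.5 differed by -0.38 ± 0.16 and -0.34 ± 0.17, not called. The EXT3 groups did not overlap in mock either. The mock differences of AT2G45220, XLG2 and NHL3 were -0.11 ± 0.31, -0.20 ± 0.11 and 0.02 ± 0.12, not called.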

How the data were processed

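The authors deposited raw read counts per gene for 12 poly(A) libraries (1 µg of total RNA, directional kit, per the labels' protocols). Per the submitters' processing notes the genome build was TAIR10 and the tools were HTSeq 0.6.1, TopHat2 2.0.10, cutadapt 1.5 and CASAVA 1.8.2. How strand and overlaps were handled in counting is not stated there, so values of overlapping, antisense and near-identical genes are uncertain. The table lists 32678 genes, 7389 without a read, and 31912 identifiers matched the RefSeq annotation of TAIR10.1.

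Genes were filtered with filterByExpr, scaled by TMM and fitted in edgeR 4.0.16 (R 4.3.3) by 1 quasi-likelihood model with 4 groups (8 residual degrees of freedom), with Benjamini-Hochberg adjustment over 20994 genes and a threshold of 0.05. SE is the absolute log2 difference divided by the square root of F. Same-numbered libraries of both genotypes after chitin had correlated deviations (0.303, 0.297 and 0.397), and the design text describes independent experiments, so the replicate number was used as a block in a further fit. DESeq2 1.42.0, other scalings, filters and left-out libraries were alternatives, and 2 alternatives on seed storage transcripts were chosen after seeing the data. The statistics were tested on simulated data for the size of estimates and the recovery of changed genes. The simulated libraries had no experiment effect, so that test does not cover the use of the block, and it set no limit on false calls. CPM of 3 reads covers counting error only.

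The comparison and the lists (18 with 282 genes, and 5 marker lists with 41) were chosen with earlier results of these data known. Named genes were those called without the block, up to 12 per direction with a symbol called with it (mean log2 CPM at least 1, same sign in 3 pairs, smallest p), with the 3 largest differences per direction, leading genes without a symbol, up to 2 called members per list and direction or else the member with the smallest p, and MAPKKK5. The sequence before 1 of the called genes is not reported here.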

Additional observations from a re-analysis of the deposited data

Results flagged for a closer look

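The genotype difference itself differed between the treatments for 2 genes in the fit with the experiments as a block. For PBS3 the difference after chitin minus that in mock was -1.61 ± 0.18 on the log2 scale (adjusted p = 0.0106 over all genes tested), and without the block it was -1.62 (adjusted p = 0.168). For AT5G25260 it was -1.92 ± 0.24 (adjusted p = 0.0130), and without the block -1.95 (adjusted p = 0.0899). Both genes were lower in mapkkk5 after chitin in 3 of 3 experiments, which concerns the difference after chitin and not its change between treatments.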

How the results depend on the processing

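The 15 calls after chitin came to 14 or 15 under other scalings, a filter at 1 CPM and a robust dispersion fit, and to 13 with the 6 chitin libraries alone. They moved to 23 with no filter on low counts, 61 with DESeq2 (54 lower, 7 higher), 96 with the replicate block and 124 with the 6 chitin libraries and the block. Leaving out 1 library gave 9 to 19 calls, and leaving out 1 experiment gave 0 to 23 without the block. With the block, leaving out experiment 1, 2 or 3 gave 60, 20 and 162. Without both mapkkk5 chitin libraries with seed storage transcripts there were 8 calls, 7 higher and 1 lower. The count for the difference of genotype effects was 0 in the main test, 1 with no filter, 4 with DESeq2 and 2 with the block. The mock count of 4 became 7 with DESeq2 and 7 with the block. The MAPKKK5 difference after chitin stayed between -1.12 and -0.38 and was called under none of the 23 alternatives. Of 805 recalculated values of named genes, 676 kept direction and side of the threshold, 71 lost the call, 57 gained one, and 1 changed sign: ELF3, from -0.15 to 0.001 with the block and without experiment 3. The causes were not tested. With 3 libraries per group, depth limits genes near 0.149 to 0.194 CPM, the level of 3 reads, such as MAF5 in Col.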

Other observations

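The 28 called genes on chromosome 1, 16 on chromosome 2, 13 on chromosome 3, 21 on chromosome 4 and 18 on chromosome 5, all with the replicate block, compare with 5511, 3176, 4132, 3201 and 4862 genes tested on these chromosomes. Of the 85 genes lower in mapkkk5 after chitin with the block, 33 have no symbol in the annotation. The 85 genes had a median level of 41.3 CPM in Col after chitin, against 1.25 CPM for the 11 higher genes. Col after chitin is 1 side of the comparison that selected these genes, so the selection itself favours this gap. Among annotated cytochrome P450 genes 4 of 184 (2.17%) were lower and 0 were higher with the block, against 0.405% and 0.0524% of all genes tested.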
